A study of Solanum lycopersicum with 95 samples.

Results

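Leaves of tomato plants were compared after 48 h with and without added far-red light (FR), using the 4 leaf libraries of the Leaf FR treatment and the 4 of the No FR treatment at that time point. They are 8 of the 95 libraries of the series and 8 of its 47 leaf libraries. All plants were the hybrid cultivar Foundation under red and white light of 258 µmol m-2 s-1. Under Leaf FR, overhead modules gave the vegetative organs a further 77 µmol m-2 s-1 of FR, starting 63 days after sowing and 10 days after anthesis, and the fruits behind a curtain got none. Under No FR neither organ received it. One leaflet of leaf 13 was taken per plant, from 4 plants per treatment, with a different set of plants at each time point and no shared growth unit within a time point. The samples of 48 h were taken at the same clock time as those of 0 h, before the FR treatment began.

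Plants sense the ratio of red to far-red light through phytochromes, photoreceptors that red light turns into their active form and far-red light turns back. Low ratios of red to far-red release phytochrome-interacting transcription factors, which in model plants switch on homeobox genes, auxin synthesis and transport, and cell wall loosening, known together as the shade-avoidance response. Leaves are where much of this light signal is sensed.

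The 8 libraries summed to between 15343197 and 17845503 counts, and between 20400 and 21390 genes had at least 1 count in each. Their median rank correlation was between 0.966 and 0.972 with other leaf libraries and between 0.868 and 0.886 with fruit libraries, so that each stood closer to the organ on its label. In such bulk samples, a change in the RNA of a cell type and a change in the number of its cells cannot be told apart. The largest share of the variance between the 8 libraries, 46.2%, lay on an axis that ran across both treatments, from −59.9 to 84.7 under Leaf FR and from −56.0 to 31.2 under No FR. Leaf FR replicate 2 stood at the end of this axis and also had the lowest TMM scaling factor (0.554, against up to 0.892) and the largest share of counts in its 10 most abundant genes (16.1%, against 10.1% in the lowest library).

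After 48 h, 14 of the 17607 genes tested were upregulated in leaves under Leaf FR and 0 (0%) were downregulated (edgeR's quasi-likelihood test, Benjamini-Hochberg adjusted P-value under 0.05), which is 0.0795% of the genes tested. In all 14 the lowest library under Leaf FR lay above the highest under No FR, as it did for 3.1% of all genes tested. The 14 were called on these same libraries, so their lack of overlap is no separate evidence. Without the adjustment, 604 genes (3.43%) had a P-value under 0.05 and a higher level under Leaf FR, and 721 (4.09%) a lower one, 7.53% in all. The fold changes of the 14 genes ranged from 1.22 to 7.60 on the log2 scale (Log2FC), against a median of 0.02 over all genes. The deposited table gives these genes by ID only, and no name or function was attached to any of the 14 here.

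The number of calls differed between tests and with single libraries. By DESeq2, the test that the study used, 253 of 17557 genes (1.44%) passed the same threshold, and all 14 were among them. Of the 253 genes, 139 were higher and 114 lower under Leaf FR. With 1 library left out the edgeR test called 4 (without Leaf FR replicate 1), 9 (without replicate 2), 6 (without replicate 3) or 6 (without replicate 4) genes, and 7, 5, 5 or 16 without No FR replicate 1, 2, 3 or 4, all of them upregulated.

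**Figure D1:**
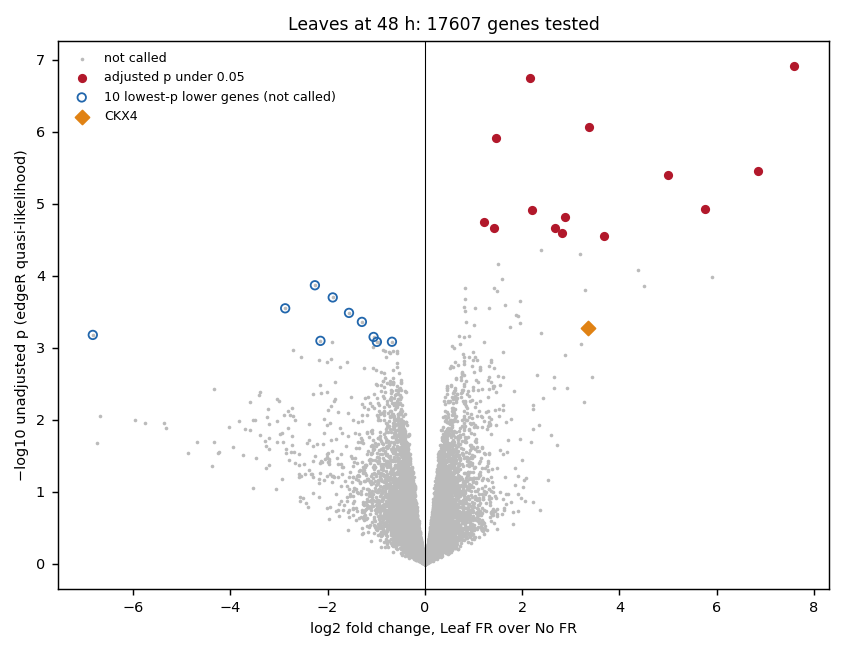
Log2FC of Leaf FR over No FR (horizontal axis) and −log10 of the unadjusted P-value (vertical axis, edgeR) for each of the 17607 genes tested in leaves at 48 h. The 14 genes past the threshold (red) all lie on the upregulated side, and the 10 lower genes with the lowest P-values (blue rings) and CKX4 (orange) did not pass it.

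Of the 14 genes, 4 passed the threshold with any of the 8 libraries left out. The first, Solyc06g035530 (on chromosome 6 by its ID, as for the chromosomes of the other genes), was close to silent without FR at 48 h. Its levels under Leaf FR were 21.5, 56.4, 23.1 and 30.4 counts scaled to library size (CPM) in replicates 1 to 4, and under No FR they were 0.277, 0.0932, 0.0863 and 0.147 CPM. The No FR libraries held 8 counts of this gene together and the Leaf FR libraries 1565, a ratio of 194 after scaling (exact 95% Poisson interval 98.2 to 450, counting error only). Its Log2FC was 7.60 (SE 0.50, adjusted P-value 0.0016 by edgeR), the largest of the 14, and rests on those 8 counts. In No FR leaves its mean was 0.151 CPM at 48 h, the lowest of the time points, and 1.95 CPM at 6 h, the highest.

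Solyc08g078300, on chromosome 8, was raised to a similar level in each plant. It was measured at 48.3, 49.9, 38.6 and 49.1 CPM under Leaf FR and at 11.7, 10.3, 8.98 and 10.1 CPM under No FR. The means were 46.5 ± 5.30 and 10.3 ± 1.13 CPM (SD, n = 4 each), and the Log2FC was 2.16 (SE 0.15, adjusted P-value 0.0016 by edgeR). Replicate 3 was the lowest of the plants under FR and stood apart from the other 3, and it still lay well above every plant without FR.

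Solyc05g053410, on chromosome 5, rose more, with a wider spread among the plants under FR. The levels were 81.5, 86.9, 95.2 and 147 CPM under Leaf FR and 9.77, 6.25, 10.1 and 13.2 CPM under No FR (Log2FC 3.37, SE 0.28, adjusted P-value 0.0051 by edgeR). Replicate 4 was the highest in both treatments, and the treatments were far from overlapping.

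Solyc04g074700, on chromosome 4, showed the smallest change of the 4 and, under FR, the narrowest spread. It stood at 70.1, 76.0, 77.2 and 76.1 CPM under Leaf FR and at 28.1, 22.2, 27.4 and 29.1 CPM under No FR (Log2FC 1.47, SE 0.13, adjusted P-value 0.0054 by edgeR). Its adjusted P-value stayed between 0.0108 and 0.0434 with any library left out.

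The next 3 genes by Log2FC also had low counts without FR. Solyc08g076250 had 89, 130, 81 and 88 counts under Leaf FR, but 1, 0, 2 and 0 under No FR. The summed counts of 388 and 3 give a ratio of 128 with an exact 95% Poisson interval of 43.6 to 625, and the fitted Log2FC of 6.85 (SE 0.67, adjusted P-value 0.0116 by edgeR) rests on those 3 counts. Solyc01g066980 was measured at 16.7, 40.4, 16.4 and 22.02 CPM under Leaf FR and at 0.347, 0, 0.259 and 1.03 CPM under No FR (Log2FC 5.76, SE 0.66, adjusted P-value 0.0270 by edgeR). Solyc06g062460 was measured at 52.6, 118, 45.6 and 63.3 CPM under Leaf FR and at 1.80, 0.746, 2.16 and 3.83 CPM under No FR (Log2FC 5.00, SE 0.50, adjusted P-value 0.0116 by edgeR). In these 3 genes and in Solyc06g035530, Leaf FR replicate 2 was the highest library, the same plant that stood apart in scaling. Why it was the highest was not tested. Without that library, all 4 were still called. The call of Solyc08g076250 was lost without Leaf FR replicate 1 (adjusted P-value 0.0523 by edgeR), No FR replicate 1 (0.0622) or No FR replicate 2 (0.0516), and that of Solyc06g062460 without Leaf FR replicate 1 (0.0523), No FR replicate 1 (0.0689) or No FR replicate 3 (0.111). That of Solyc01g066980 was kept only without Leaf FR replicate 2 (0.0423) or No FR replicate 4 (0.0211), and was between 0.0516 and 0.185 without any other library.

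Solyc06g060830, on chromosome 6, was the most abundant of the 14. Its levels were 552, 412, 484 and 584 CPM under Leaf FR and 38.9, 51.2, 70.9 and 125 CPM under No FR (Log2FC 2.82, SE 0.35, adjusted P-value 0.0343 by edgeR). The plants without FR spread more in proportion than those with it, and No FR replicate 4 was the highest of them. Without that library the adjusted P-value was 0.0125, and without any one of the others it was between 0.0754 and 0.224.

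Solyc08g067310, on chromosome 8, was at 59.8, 34.2, 63.6 and 78.2 CPM under Leaf FR and at 14.9, 11.2, 13.4 and 11.3 CPM under No FR (Log2FC 2.19, SE 0.25, adjusted P-value 0.0270 by edgeR). Here Leaf FR replicate 2 was the lowest plant under FR. Without it the adjusted P-value was 0.0037, and without any other library it was between 0.0640 and 0.180.

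The remaining 5 genes had lower levels or smaller changes. Solyc01g080880 lay between 107 and 153 CPM under Leaf FR and between 50.1 and 61.9 CPM under No FR (Log2FC 1.22, SE 0.15, adjusted P-value 0.0320 by edgeR), the smallest change of the 14. Solyc04g016430 lay between 23.7 and 44.1 CPM and between 2.52 and 6.58 CPM (Log2FC 2.68, SE 0.33). Solyc01g090460 lay between 10.0 and 18.7 CPM and between 0.347 and 1.69 CPM (Log2FC 3.69, SE 0.47). In each of these genes the treatments did not overlap. Solyc02g083120 lay between 7.72 and 12.9 CPM and between 0.777 and 2.01 CPM (Log2FC 2.89, SE 0.34), and Solyc01g110720 between 9.20 and 10.8 CPM and between 3.17 and 4.41 CPM (Log2FC 1.42, SE 0.18). The adjusted P-values of these last 4 genes were between 0.0301 and 0.0351 by edgeR, and with 1 library left out they ranged from 0.0238 to 0.224. Solyc02g083120 was then called only without No FR replicate 1 (0.0238), Solyc01g110720 only without No FR replicate 4 (0.0400), and Solyc04g016430 and Solyc01g090460 in no case. Solyc01g080880 was called only without Leaf FR replicate 2 (0.0254), and was otherwise between 0.0578 and 0.224.

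**Figure D2:**
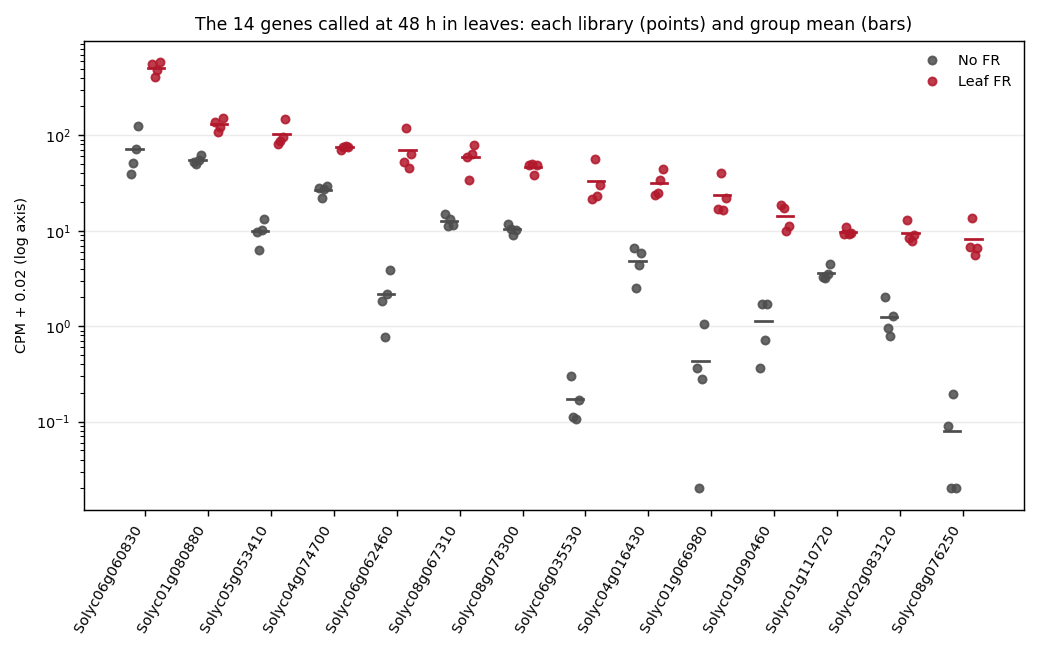
Level of the 14 called genes in each of the 8 leaf libraries of 48 h (points) with the group means (bars), as CPM plus 0.02 on a log axis, ordered by the mean under Leaf FR. The treatments do not overlap in any of the 14 genes, and the libraries at the bottom of the axis are the No FR libraries with 0 counts of Solyc01g066980 and Solyc08g076250.

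Whether the 14 genes also responded on other days was read from the other leaf time points. Their plants and controls are separate from those of 48 h. By the study's design, the plants of a treatment shared growth units across time points, so the times are not fully independent. Before FR, at 0 h, 10 of the 14 had enough counts to be tested. Of these, 0 had an adjusted P-value under 0.05 by edgeR (0% of all genes) and 0 an unadjusted one (3.17% of all genes, 552 genes). In 4 of the 10 the Leaf FR group was the higher, against 45.7% of all genes, and the median Log2FC was −0.15.

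After 6 h of FR, 9 of the 14 were called, all upregulated, against 0.321% of the 18085 genes tested then. The 12 h comparison had 3 Leaf FR libraries, and 1 gene in all (0.00548%) and 0 of the 14 passed the adjusted threshold. At that time 10 had an unadjusted P-value under 0.05 and a higher level under Leaf FR (background 0.62%). After 24 h, 9 were called (background 0.148% upregulated), and after 96 h 11 were (background 0.257%). Every Leaf FR library lay above every No FR library in 12, 10, 12 and 13 of the 14 genes after 6, 12, 24 and 96 h, against 3.25%, 1.57%, 2.1% and 4.06% of all genes. All 14 had a positive Log2FC at each of these times except Solyc01g110720 at 12 h (−0.15), against 50.9%, 44.3%, 46.4% and 52.3% of all genes.

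Set by gene, 6 of the 14 were called at 6, 24, 48 and 96 h: Solyc06g035530, Solyc05g053410, Solyc06g062460, Solyc02g083120, Solyc06g060830 and Solyc01g090460. Mean levels of Solyc05g053410 under Leaf FR were 6.12 CPM before FR and 61.5, 49.7, 69.0, 103 and 114 CPM after 6, 12, 24, 48 and 96 h, while the means under No FR lay between 5.49 and 9.96 CPM. Its Log2FC after 6, 24, 48 and 96 h was 3.06, 2.88, 3.37 and 3.52, with standard errors between 0.27 and 0.35. The difference between its responses of 48 and 6 h was 0.33 (SE 0.38, adjusted P-value 0.893 by edgeR). Solyc06g062460, in contrast, had its highest mean under Leaf FR at 6 h (195 CPM) and 69.9 CPM at 48 h.

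Solyc08g078300 and Solyc04g074700 were not called at every time. The Log2FC of Solyc08g078300 was 3.23 at 6 h (adjusted P-value 0.0223 by edgeR), and after 12, 24, 48 and 96 h it was 0.68, 1.71, 2.16 and 2.73. That of Solyc04g074700 after 6, 12, 24, 48 and 96 h was 1.85, 0.62, 0.81, 1.47 and 1.87, and it was called after 6, 48 and 96 h. At 96 h the libraries of Solyc08g078300 under Leaf FR ranged from 40.4 to 163 CPM, and its adjusted P-value was 0.0785. Solyc08g076250 and Solyc01g066980 were called from 24 h onward and had Log2FC of 3.57 and 3.56 at 6 h, when their adjusted P-values were 0.0767 and 0.120.

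Only at 48 h were Solyc08g067310 and Solyc01g110720 called. The Log2FC of Solyc08g067310 after 6, 12, 24, 48 and 96 h was 0.29, 0.50, 0.41, 2.19 and 1.78. Its mean under Leaf FR was 22.5 CPM at 24 h and 61.7 CPM at 96 h, and the adjusted P-value at 96 h was 0.115. Being called at one time and not at another is not a difference between times. The change in response of Solyc08g067310 from 6 to 48 h was 1.92 (SE 0.44, unadjusted P-value 0.00055 and adjusted P-value 0.330 by edgeR). That of Solyc01g110720 was −0.36 (SE 0.54, unadjusted P-value 0.513 and adjusted P-value 0.921 by edgeR). Both genes were chosen on the 48 h libraries, and missing the threshold does not show that their responses were equal.

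**Figure D3:**
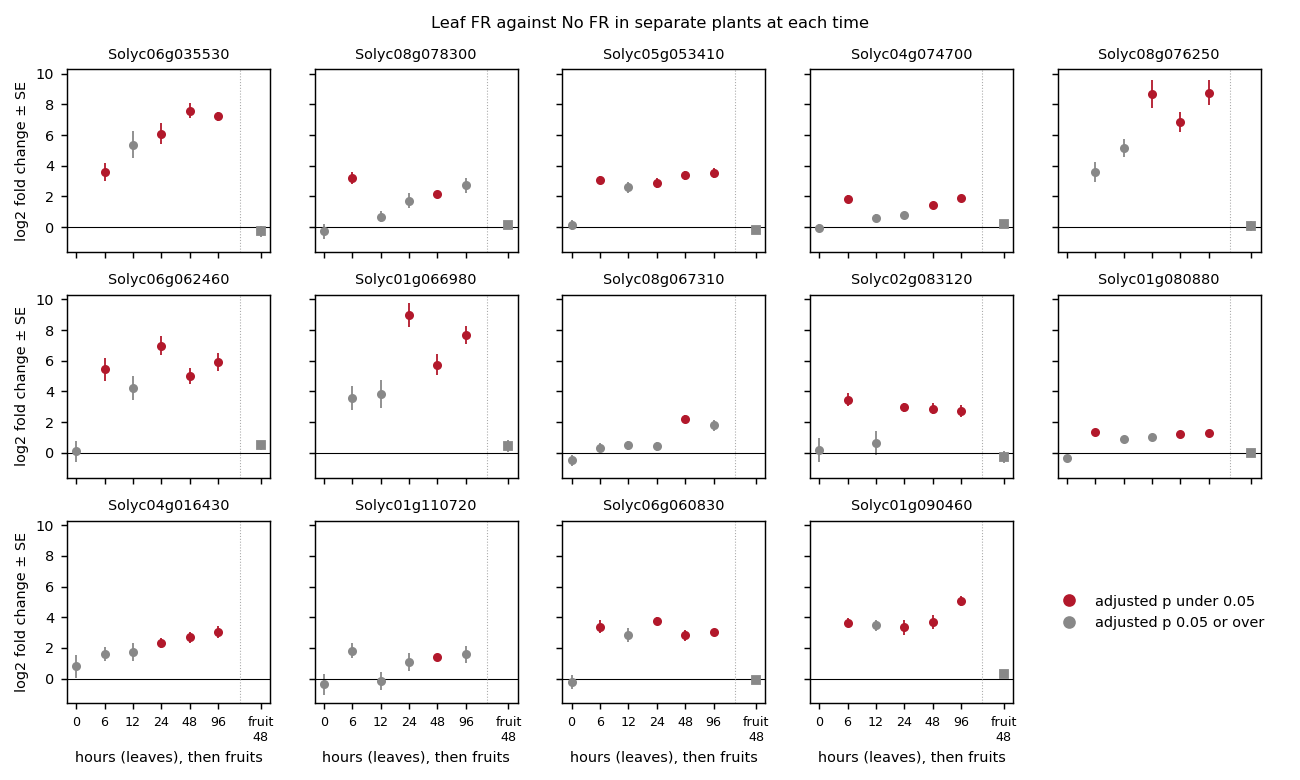
Log2FC ± SE of Leaf FR over No FR for the 14 genes called at 48 h, in leaves at 6 time points and, right of the dotted line, in fruits at 48 h. Red symbols had an adjusted P-value under 0.05 in the edgeR test of that time point, a missing symbol marks a gene with too few counts to be tested, and the symbols at 0 h and in fruits lie near 0.

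Seen from the other times, the calls made there were mostly shifted the same way at 48 h. Over all genes tested at 48 h, 52.3% had a positive Log2FC and 0.0795% were called, all upregulated. All 26 genes upregulated at 24 h had a positive Log2FC and an unadjusted P-value under 0.05 at 48 h (background 3.43%), and 9 were called. Of the 45 genes upregulated at 96 h, 43 could be tested at 48 h. All 43 were positive, 40 had an unadjusted P-value under 0.05 and 11 were called. Of the 58 genes upregulated at 6 h, 53 could be tested, 46 were positive and 34 had an unadjusted P-value under 0.05, and 9 were called. The median Log2FC of the genes upregulated after 6, 24 and 96 h was 2.26, 3.18 and 2.36 at those times, and 0.80, 2.75 and 1.61 at 48 h. Of the 8, 7 and 1 genes downregulated after 6, 24 and 96 h, 8, 6 and 1 could be tested at 48 h. Of these, 7, 6 and 1 were negative, 3, 4 and 1 of them had an unadjusted P-value under 0.05 (background 4.09%), and 0 were called by edgeR. The 9, 11 and 9 genes called make up 64.3%, 78.6% and 64.3% of the 14 calls of 48 h.

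**Figure D4:**
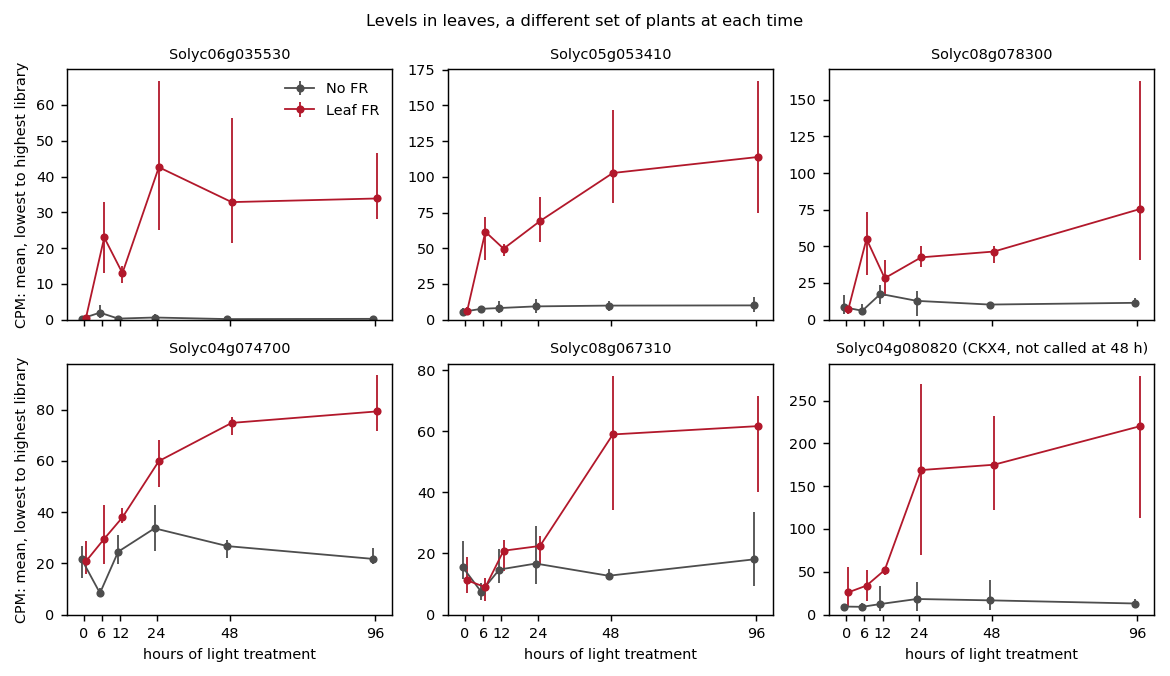
Mean CPM in leaves under Leaf FR (red) and No FR (grey) at 0 to 96 h, with bars from the lowest to the highest library, for the 4 genes called at 48 h with any library left out, for Solyc08g067310 and for CKX4 (Solyc04g080820). At 6 h the first 4 are already higher under Leaf FR than under No FR. Solyc08g067310 is then at 8.97 CPM under Leaf FR and 7.48 CPM under No FR, and at 59.0 and 12.7 CPM at 48 h. For Solyc04g074700 the mean goes from 21.5 CPM at 0 h to 8.37 CPM at 6 h under No FR, and from 20.8 to 29.6 CPM under Leaf FR.

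Compared with the same clock time before FR, the 14 genes were higher at 48 h under FR. These comparisons use the 48 h libraries again and are no separate evidence. Between 0 and 48 h under Leaf FR, 13 of the 14 were higher at 48 h with an adjusted P-value under 0.05, when 0.358% of all genes were. Solyc04g016430 was not called (Log2FC 2.82, SE 0.62, adjusted P-value 0.0960 by edgeR). Between 0 and 48 h under No FR, 11 could be tested, 0 were called by edgeR (0% of all genes, with 1040 or 5.94% at an unadjusted P-value under 0.05), and their changes lay between −0.29 and 0.95. In the test of the difference of both changes, 1 gene of 18146 was called (0.00551%), Solyc05g053410, with a difference of 3.20 (SE 0.43, adjusted P-value 0.0300 by edgeR). In that test 14 of 14 had a positive difference with an unadjusted P-value under 0.05 (background 1.96%). The call was lost when any of 11 of the 16 single libraries was left out.

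The response at 48 h was also set against that at 6 h. In that test 0 of 18637 genes (0%) were called by edgeR, with 1443 (7.74%) at an unadjusted P-value under 0.05, and 83 were called by DESeq2. Of the 14 genes, 7 had a larger Log2FC at 48 h (50.2% of all genes did) and 7 a smaller one, and the median difference was −0.03. The 14 were chosen on the 48 h libraries, which this test uses again, so the split cannot show whether their responses were equal. Without No FR replicate 4 of 6 h, 10 genes were called. The largest difference among the 14, the 4.05 of Solyc06g035530 (SE 0.88, adjusted P-value 0.322 by edgeR), did not pass, and the clock times of 6 and 48 h differ.

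In fruits of the same treatments, which received no FR themselves, 11 of the 14 had enough counts at 48 h. Of these, 6 had a positive Log2FC (50.1% of all genes did). By edgeR, 0 were called (0% of all genes) and 1 had an unadjusted P-value under 0.05, as 1391 or 7.54% of all genes had. The Log2FC lay between −0.28 and 0.49. Leaf and fruit libraries may come from the same plants, which the labels do not link, and were tested as separate samples. The difference in response between leaves and fruits passed the threshold for 11 of the 14 genes and for 26 of all 19808 genes (0.131%), 19 with a more positive response in leaves and 7 with a more negative one. The 14 were chosen on the same leaf libraries, so their share is raised by the choice and is no separate evidence. With single libraries left out that number was between 11 (without No FR replicate 3 of fruits) and 87 (without Leaf FR replicate 2 of leaves).

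Levels in fruits varied widely among these 11 genes. Solyc08g076250, near 0 in leaves without FR, was at 36.0 ± 12.8 CPM in fruits under Leaf FR and at 33.7 ± 14.98 CPM under No FR (SD, n = 4 each), above the 8.13 CPM of leaves under FR. Solyc01g066980 was at 6.52 and 4.75 CPM in fruits, between the 2 leaf groups. In both genes the leaf response exceeded the fruit response, by 6.80 (SE 0.86, adjusted P-value 0.0026 by edgeR) and by 5.30 (SE 0.77, adjusted P-value 0.0102). Solyc08g067310, Solyc04g016430 and Solyc01g110720 had at most 16 counts in any fruit library and were not called in the comparison of organs.

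The named genes described here come from 2 gene tables of the study, of hormone and of carbohydrate genes, which it chose on its fruit samples. Other genes that the study names, among them light-signalling genes of leaves, are not described here. Of the 21 hormone and growth genes, 15 had enough counts in leaves at 48 h, and 0 were called by edgeR (0.0795% of all genes). Before adjustment 3 of the 15 had a P-value under 0.05 (7.53% of all genes), and by DESeq2 CKX4 and SlPIN4 passed the threshold (1.44% of all genes). Their median Log2FC was 0.13, and 10 of the 15 were positive (52.3% of all genes were). The 6 genes not tested, among them the auxin synthesis gene ToFZY and the carrier SlPIN5, had at most 7 counts in any library.

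CKX4 (Solyc04g080820), a cytokinin oxidase, which breaks down cytokinins, showed the largest difference of the list. It was at 198, 122, 148 and 232 CPM under Leaf FR and at 40.5, 6.90, 5.52 and 13.5 CPM under No FR, so the treatments did not overlap. Its Log2FC was 3.36 (SE 0.64) with an adjusted P-value of 0.214 by edgeR, and the one high plant without FR, No FR replicate 1, changed that call: without it the adjusted P-value was 0.0238 and the Log2FC 4.34. DESeq2 called CKX4 (adjusted P-value 6.08e-06), as did one edgeR fit over all leaf libraries (0.009). In separate plants its Log2FC was 3.20 at 24 h (adjusted P-value 0.164) and 4.08 at 96 h (adjusted P-value 0.0026). At 0 h the plants assigned to FR were already at 25.9 CPM against 9.32 CPM (Log2FC 1.45, SE 0.56, adjusted P-value 0.999), and the change in response from 0 to 48 h was 1.89 (SE 0.87, adjusted P-value 0.905). In fruits at 48 h CKX4 was at 4.43 CPM under Leaf FR and 5.96 CPM under No FR.

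SlPIN4 (Solyc05g008060), a PIN-formed carrier that moves auxin out of cells, was at 242, 245, 139 and 174 CPM under Leaf FR and at 111, 117, 118 and 109 CPM under No FR. The 4 plants without FR were within a narrow range, and the lowest plant under FR was above them. The Log2FC was 0.80 (SE 0.20, adjusted P-value 0.378 by edgeR and 0.0316 by DESeq2), against 2.16 at 6 h (adjusted P-value 0.0226) and 1.11 at 96 h (adjusted P-value 0.0511). SlLBD38, a lateral organ boundaries domain gene, was at 1.36 to 6.29 CPM under Leaf FR and 0.863 to 3.31 CPM under No FR, which overlap (Log2FC 1.29, adjusted P-value 0.663). The auxin response factor SlARF2 and the gibberellin synthesis gene GA20OX1 had Log2FC of −0.36 and 0.02 with adjusted P-values of 0.879 and 0.998 by edgeR. The study lists the ID of GA20OX1 also under the name GA2OX1, a gibberellin-2-oxidase.

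Of the 27 carbohydrate genes, 25 were tested, and 0 were called by edgeR (0.0795% of all genes) and 0 by DESeq2 (1.44% of all genes). Before adjustment 1 had a P-value under 0.05, against 7.53% of all genes. All but 2, AGPase-L1 and SlCOX6B, had a positive Log2FC, with a median of 0.17 against 0.02 over all genes. This lean rested on 1 plant: without Leaf FR replicate 2, 9 of the 25 were positive and the median was −0.03, whereas without any other library between 20 and 24 were positive. AGPase-S1, the small subunit of the enzyme that commits glucose to starch, was one of them. It was at 470, 774, 302 and 303 CPM under Leaf FR and at 306, 393, 412 and 214 CPM under No FR (Log2FC 0.46, SE 0.35, adjusted P-value 0.888 by edgeR). The respiratory gene 2-OGDH, an oxoglutarate dehydrogenase gene of the citric acid cycle, was the only one with an unadjusted P-value under 0.05 (Log2FC 0.55, SE 0.23, adjusted P-value 0.626), and its highest library was again Leaf FR replicate 2, at 68.4 CPM against 39.3 to 46.8 CPM in the others under FR. Succinate dehydrogenase (SUCDH) and fumarase (SlFUM1), of the same cycle, had Log2FC of 0.28 and 0.29 with adjusted P-values of 0.820 and 0.849.

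**Figure D5:**
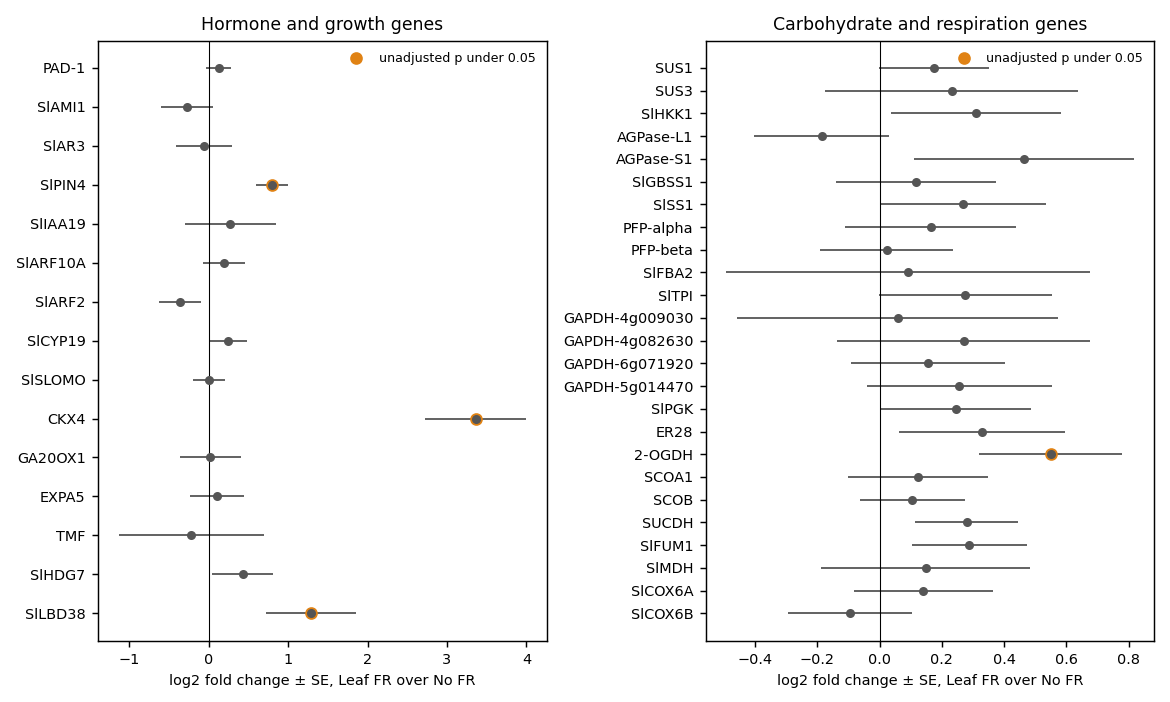
Log2FC ± SE of Leaf FR over No FR in leaves at 48 h for the tested hormone and growth genes (left, 15 genes) and carbohydrate and respiration genes (right, 25 genes), on axes of different range. Orange marks an unadjusted P-value under 0.05, CKX4 stands out at 3.36, and most carbohydrate genes lie slightly right of 0 with errors that reach it.

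Among genes with lower levels under Leaf FR, 0 were called by edgeR (721 at an unadjusted P-value under 0.05) and 114 by DESeq2. The 10 genes with the lowest P-values whose libraries did not overlap had Log2FC between −6.83 and −0.68 and adjusted P-values between 0.110 and 0.266, and all 10 were called by DESeq2 on the same libraries. Their lack of overlap, which 2.49% of all genes share, was part of the choice. In the separate plants of 6, 12, 24 and 96 h, 8 of 10, 9 of 10, 10 of 10 and 9 of the 9 tested had a negative Log2FC, where 50.9%, 44.3%, 46.4% and 52.3% of all genes had a positive one. Of these, 4, 2, 8 and 6 had an unadjusted P-value under 0.05. Among all genes, 2.93%, 0.642%, 4.07% and 4.97% were lower with such a P-value at those times. Before FR, 4 of 10 were negative, 1 of them with such a P-value (1.2% of all genes), and 45.7% of all genes were positive.

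The most extreme of them, Solyc09g082660, was at or near 0 under FR. Its libraries under Leaf FR held 1 count together, 3 of them with none, and those under No FR were at 7.48, 4.10, 1.12 and 0.294 CPM, 169 counts in all. The ratio of No FR to Leaf FR was 170 with an exact 95% Poisson interval of 30.2 to 6772, and the adjusted P-value was 0.254 by edgeR, with a wide spread among the plants without FR. In separate plants it was called lower at 24 h (Log2FC −6.41, SE 0.91, adjusted P-value 0.0423), and at 96 h the libraries under Leaf FR held 0 counts against 51 under No FR. Solyc05g009170, with the lowest P-value of the 10, was at 0.379, 0.316, 0.271 and 0.601 CPM under Leaf FR and at 1.94, 2.42, 1.55 and 1.69 CPM under No FR (Log2FC −2.26, SE 0.35, adjusted P-value 0.110 by edgeR).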

How the data were processed

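RNA of leaflets from 4 plants per treatment and time point was sequenced as paired-end reads. Per the labels and the study's methods, reads were cleaned, aligned with Bowtie2 and quantified with RSEM, and the authors deposited expected counts per gene as whole numbers, with IDs of the tomato annotation. A second deposited table holds counts that the authors divided by DESeq2 size factors, treated as a score and used only to read those factors. Replicates are separate plants.

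Groups were taken from the labels. Genes reaching 10 counts in 3 or more libraries of a comparison were tested with edgeR 4.0.16 (quasi-likelihood test, TMM scaling, Benjamini-Hochberg threshold 0.05, R 4.3.3, limma 3.58.1), once per time point and organ and as interactions with time or organ. DESeq2, which the study itself used with the same threshold, was the alternative, here in version 1.42.0. CPM used TMM factors over all 95 libraries, so they and the fitted Log2FC can differ slightly. Depth was similar in the 8 libraries, and intervals from summed counts cover counting error only.

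The members and gene lists were chosen with earlier results of these data known. All genes called at 48 h were named, then the 10 lower genes of lowest P-value with at least 1 CPM and no overlap, then the 4 genes of lowest P-value per list. The other genes of the 2 study tables described were picked for comparison after their values were seen. No reference annotation matched the gene IDs used here, so gene lists by reference name, cell type markers, sequences and promoter motifs were not used here. Other settings tried were scaling, filter, dispersion, samples in the fit, replicate block and each library left out.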

Additional observations from a re-analysis of the deposited data

Results flagged for a closer look

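The gap of 1 library to the other 3, as a share of the group's range, was tested in 72 groups of 4 libraries. The groups were the named genes under each treatment and measures of the libraries such as total counts. In 5 groups, all of named genes, the gap was past Dixon's limit, where chance gives about 3.6 (1 in 20). Under Leaf FR these were replicate 1 of Solyc04g074700 (70.1 CPM, gap 0.829009 of the range), replicate 2 of Solyc08g076250 (13.7 CPM, gap 0.846), replicate 3 of Solyc08g078300 (38.6 CPM, gap 0.859) and replicate 3 of Solyc09g082660 (0.0677 CPM from 1 count where the others had 0, gap 1.0). Under No FR it was replicate 2 of Solyc09g075330 (1.12 CPM, gap 0.874).

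The response to FR at 48 h differed between leaves and fruits (interaction term in edgeR, Benjamini-Hochberg adjusted) for 11 of the 14 genes called in leaves, which were chosen on the same leaf libraries. The difference in Log2FC was 7.89 for Solyc06g035530 (adjusted P-value 5.54e-05), 6.80 for Solyc08g076250 (0.00261), 5.30 for Solyc01g066980 (0.0102), 4.496 for Solyc06g062460 (0.00497) and 3.55 for Solyc05g053410 (5.54e-05). It was 3.42 for Solyc01g090460 (0.0123), 3.15 for Solyc02g083120 (0.0479), 2.90 for Solyc06g060830 (0.00261), 2.01 for Solyc08g078300 (0.000917), 1.26 for Solyc04g074700 (0.000832) and 1.22 for Solyc01g080880 (0.0011). The response of Solyc05g053410 also differed between 48 and 0 h in leaves, by 3.20 (adjusted P-value 0.03).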

How the results depend on the processing

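All 14 called genes kept a positive Log2FC under every setting run. In place of the 14 calls, DESeq2 gave 253, one fit over all leaf libraries 33 (13 shared with the 14), and a covariate for the first residual axis, added after seeing the data, 110 (14 shared). The other scalings and the fit without a filter gave 15, and robust dispersions and a limit of 1 on the absolute Log2FC gave 14. Leaving out 1 library gave 4 to 16. For the response of 48 against 0 h (1 call), DESeq2 gave 86, one fit 12, the residual axis 8 and leaving out 1 library 0 to 2. For 48 against 6 h (0 calls by edgeR, 1443 at an unadjusted P-value under 0.05), DESeq2 gave 83, the residual axis 1 and leaving out 1 library 0 to 10. For leaves against fruits (26 calls), DESeq2 gave 382, the residual axis 364 and leaving out 1 library 11 to 87. The causes were not tested.

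Libraries with the same replicate number were not treated as pairs, and the study analyzed its data as a completely randomized design. The correlations of their deviations were −0.43, 0.25, −0.58 and 0.63, and values of such mixed sign cannot decide whether they were pairs. With the replicate block, 3 genes were called at 48 h (Solyc06g035530, Solyc05g053410 and Solyc08g078300), 1 for 48 against 0 h, 1 for 48 against 6 h and 20 for leaves against fruits. Solyc09g082660 had too few counts to be tested without No FR replicate 1, 2 or 3. The common biological coefficient of variation at 48 h was 34.5% with 4 plants per group, and the fold changes of Solyc06g035530 and Solyc08g076250 rest on 8 and 3 counts without FR.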

Other observations

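Around Solyc01g110720 on chromosome 1, a run of genes with neighbouring IDs was looked at after its values were seen. By edgeR, Solyc01g110720 was the only one of the run called at 48 h. DESeq2 also called Solyc01g110790 (adjusted P-value 1.54e-07), Solyc01g110730 (1.03e-05), Solyc01g110770 (0.000233), Solyc01g110710 (0.0157) and Solyc01g110630 (0.0175), but not Solyc01g110660 (0.205). At 6 h edgeR called Solyc01g110790 (adjusted P-value 0.0432). Of the 11 other genes of the run that could be tested, 6 had an unadjusted P-value under 0.05, with every Leaf FR library above every No FR library, and the treatments overlapped in the other 5, of which Solyc01g110810 and Solyc01g110820 had Log2FC of −0.40 and −0.22. Solyc01g110790 had a Log2FC of 3.19 (SE 0.44, adjusted P-value 0.0558 by edgeR) and Solyc01g110730 of 1.501 (SE 0.21, adjusted P-value 0.0707). Over the neighbours in ID of all 14 called genes, 12 of 164 tested (7.32%) were higher at an unadjusted P-value under 0.05 and 8 (4.88%) lower, against 3.43% and 4.09% of all genes, and 6 of the 12 belong to this run. RSEM divides reads that match several near-identical genes among them, and how alike these genes are in sequence was not tested.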
